A study of Mus musculus with 59 samples.

Results

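The 8 genes described here encode glutamate transporters and their nearest relatives. Members of the Slc1 family (Slc1a1, Slc1a2, Slc1a3, Slc1a4, Slc1a5 and Slc1a6) sit in the cell membrane, and Slc17a6 and Slc17a7 sit in the membrane of synaptic vesicles. They were taken by name from a table of 51456 mouse genes, and all 8 were among the 16839 genes tested, those averaging 10 normalized counts or more.

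Polyadenylated RNA of the prefrontal cortex was sequenced with a stranded kit. The mice were C57BL/6J pups taken at postnatal day 25. The pups had been exposed to lithium, fluoxetine or vehicle from day 3 to day 24 through the milk of their mothers. Lithium and fluoxetine are drugs used in mood disorders. Lithium inhibits glycogen synthase kinase and inositol monophosphatase, and fluoxetine blocks the serotonin transporter. The mice carried the S62X allele of Chd8, a chromatin remodeller linked to autism, in heterozygous form (HT) or were wild type (WT). Lithium was given to 5 females and 5 males labelled HT and to 5 females and 5 males labelled WT. Fluoxetine was given to 4 females and 5 males labelled HT and to 5 females and 5 males labelled WT. Vehicle was given to 5 females and 5 males of each genotype. That makes 12 groups and 59 libraries. The labels name no dam, litter or processing batch, so the p-values count each library as a separate unit and leave out any spread from one treated mother to another.

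Chd8 itself went against its label. It stood at 5921 ± 384 normalized counts in libraries labelled HT (SD, n = 29, range 5115 to 6626) and at 3656 ± 309 in libraries labelled WT (SD, n = 30, range 2828 to 4229). Less Chd8 RNA in HT libraries was thus not seen, so genotypes are given below as HT-labelled and WT-labelled, and a direction between them is a direction between labels. Library sums lay between 30.3 and 33.7 M normalized counts. Markers of the striatum were more than 5 robust SDs above their median in 3 libraries, which were replicate 3 of the HT-labelled vehicle females, replicate 2 of the WT-labelled lithium males and replicate 5 of the WT-labelled vehicle females. Markers of the olfactory bulb varied widely, with mean log2 levels between 4.604 and 11.1 over the libraries. In every HT-labelled group the lowest level was that of replicate 1. In HT-labelled vehicle females, for example, the levels were 4.80, 5.27, 8.24, 10.57 and 10.56 in the order of replicate number. Among WT-labelled groups replicate 1 was lowest only in lithium females. What the replicate numbers stand for is not given, and this order was not tested.

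Glutamate is the main excitatory transmitter of the cortex. Excitatory neurons load it into synaptic vesicles through vesicular transporters of the Slc17 family and release it, and plasma membrane transporters of the Slc1 family on astrocytes and neurons take it up again. Astrocytes turn part of it into glutamine, which neurons reclaim as a precursor, while the neutral amino acid exchangers of the Slc1 family move alanine, serine, cysteine and glutamine in place of glutamate.

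Set per kilobase of exon, so that genes of different length could be compared, the members spanned a wide range of levels. Slc17a7, the vesicular transporter of most cortical excitatory neurons, was highest at 16300 ± 1780 normalized counts per kb (SD over 59 libraries). The astrocytic uptake transporters followed, with Slc1a2 at 9090 ± 1022 and Slc1a3 at 5117 ± 342 normalized counts per kb. Slc1a1, the uptake transporter of neurons, stood at 1257 ± 63.8, and Slc1a4, an exchanger of alanine, serine and cysteine, at 538.7 ± 28.3. Slc17a6, the vesicular transporter typical of thalamic and other subcortical neurons, stood at 185.0 ± 36.3. Slc1a6, known best from cerebellar Purkinje cells, stood at 87.5 ± 10.3, and Slc1a5, a glutamine exchanger, at 46.9 ± 11.01. The ranges of neighbours in this order did not overlap from Slc17a7 down to Slc17a6. The ranges of Slc17a6 and Slc1a6 overlapped, although Slc17a6 was above Slc1a6 in 59 of 59 libraries, and Slc1a6 was above Slc1a5 in 58 of 59 with overlapping ranges.

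**Figure D1:**
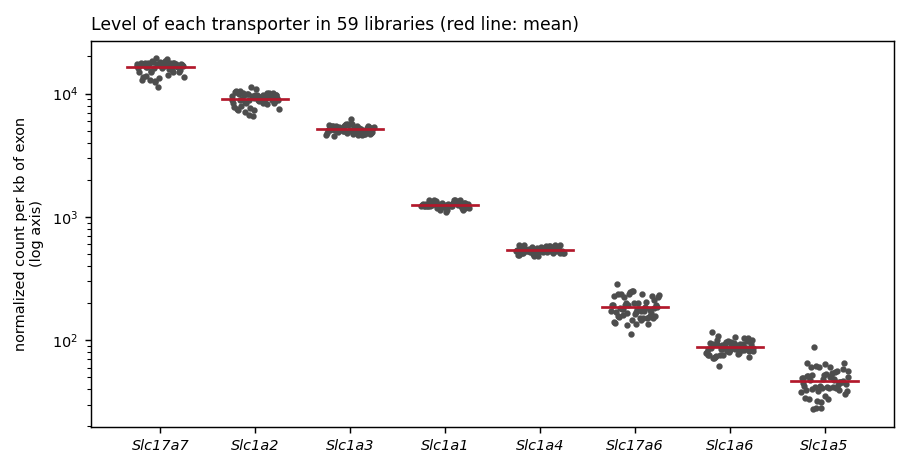
Normalized counts per kilobase of annotated exon (log axis) for each transporter, with 1 point per library (59 libraries) and the mean as a red line. Slc17a7 lies highest with a mean of 16300, Slc1a5 lowest with a mean of 46.9, and points of neighbouring genes overlap only among Slc17a6, Slc1a6 and Slc1a5.

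Slc1a1 encodes the neuronal glutamate transporter EAAC1, which also carries cysteine into neurons. It was the member whose RNA differed between treatments, being higher after lithium. The gene (ENSMUSG00000024935) lies on the plus strand of chromosome 19, from 28835049 to 28913960 in GRCm38. The 164 bases just before its annotated start, chr19:28834885-28835048 on the plus strand, are shown because this gene alone among the members was called between treatments. They were taken from RefSeq (GRCm38.p6) and run 5′ to 3′, with matches to the GC box GGGCGG on either strand in capitals.
Slc1a1: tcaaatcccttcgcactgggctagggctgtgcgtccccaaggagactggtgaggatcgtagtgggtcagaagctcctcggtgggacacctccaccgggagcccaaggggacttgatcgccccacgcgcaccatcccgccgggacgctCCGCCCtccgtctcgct
The stretch has a GC content of 66.5% and 1 match to GGGCGG, which 18.6% of 32851 promoter windows of the same length hold on either strand. It has 0 matches to TGATGNAAN, a C/EBP-ATF element known from amino acid stress genes, which 2.05% of those windows hold. The windows were cut at the same distance from each RefSeq start. For Slc1a1 that start lies inside the annotated gene, so the other windows end short of their own starts. These counts describe the letters of the window.

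Slc1a1 lay higher after lithium in both labels and was called in WT-labelled mice. In HT-labelled mice the 5 lithium females had 5216, 4771, 4687, 4919 and 4735 normalized counts, against 4484, 4616, 4825, 4664 and 4347 in the 5 vehicle females. The 5 lithium males had 4967, 5248, 5096, 4805 and 5158 normalized counts, against 4565, 4964, 4607, 4694 and 4734 in the 5 vehicle males. Groups of both sexes overlapped, with all 10 lithium libraries above the vehicle median and 5 above the highest vehicle library. The means were 4960 ± 209 and 4650 ± 172 normalized counts (SD, n = 10 each), and lithium minus vehicle was 0.09 ± 0.03 (SE) on the scale log2(value + 1) (limma unadjusted p = 0.00077, adjusted p = 0.124). Of the 8 members, 0 were called at an adjusted p under 0.05 in this comparison, against 0.238% of all tested genes, and 1 (Slc1a1) had an unadjusted p under 0.05, against 10.2% of all tested genes.

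In WT-labelled mice, Slc1a1 RNA rose after lithium. The 5 lithium females had 4951, 5255, 5245, 4982 and 5047 normalized counts, against 4656, 4484, 4294, 4889 and 4501 in the 5 vehicle females. The 5 lithium males had 4935, 4788, 5157, 5227 and 4878 normalized counts, against 4898, 4585, 4713, 4833 and 4518 in the 5 vehicle males. Every lithium female lay above every vehicle female, while the male groups overlapped. How many of all tested genes separate in this way was not counted, so no weight is placed on it. Within these females 0% of all tested genes were called, and 6.56% had an unadjusted limma p under 0.05. All 10 lithium libraries were above the vehicle median, and 8 were above the highest vehicle library. The means were 5047 ± 166 and 4637 ± 198 normalized counts in lithium and vehicle libraries (SD, n = 10 each). On the log2 scale lithium minus vehicle was 0.12 ± 0.03, an increase of 8.87% with a 95% interval of 5.003 to 12.9% (limma adjusted p = 0.0224). Slc1a1 was the single member of 8 called in this comparison, in which 0.214% of all tested genes were called. An unadjusted p under 0.05 was found for 2 members, Slc1a1 and Slc1a4, and for 11.9% of all tested genes. The call rests on a small margin. The adjusted p was 0.0556 without replicate 3 and 0.0679 without replicate 4 of the lithium males, 0.0702 without replicate 3 of the vehicle females, and 0.0610 and 0.0696 without replicates 2 and 5 of the vehicle males, and it was 0.0616 when the groups of the comparison were fitted alone. The difference between the HT-labelled and WT-labelled responses was −0.03 on the log2 scale, with a 95% interval of −0.10 to 0.04 (limma adjusted p = 1.0). A response in one genotype label and not in the other was thus not shown.

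Averaged over both genotype labels and both sexes, a comparison added after the data had been seen, Slc1a1 stood at 5003 ± 189 normalized counts after lithium and 4644 ± 181 after vehicle (SD, n = 20 each). The log2 difference was 0.11 ± 0.02 (limma adjusted p = 0.000269), and the gene ranked 20 by p among all tested genes, of which 4.41% were called. All 20 lithium libraries lay above the vehicle median of 4636, and 11 lay above the highest vehicle library at 4964. Its residual SD of 0.05 on the log2 scale was at percentile 1.31 of all tested genes, so it was among the least variable genes within groups. In bulk RNA, a change in the number of cells of a type and a change in RNA per cell cannot be told apart.

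**Figure D2:**
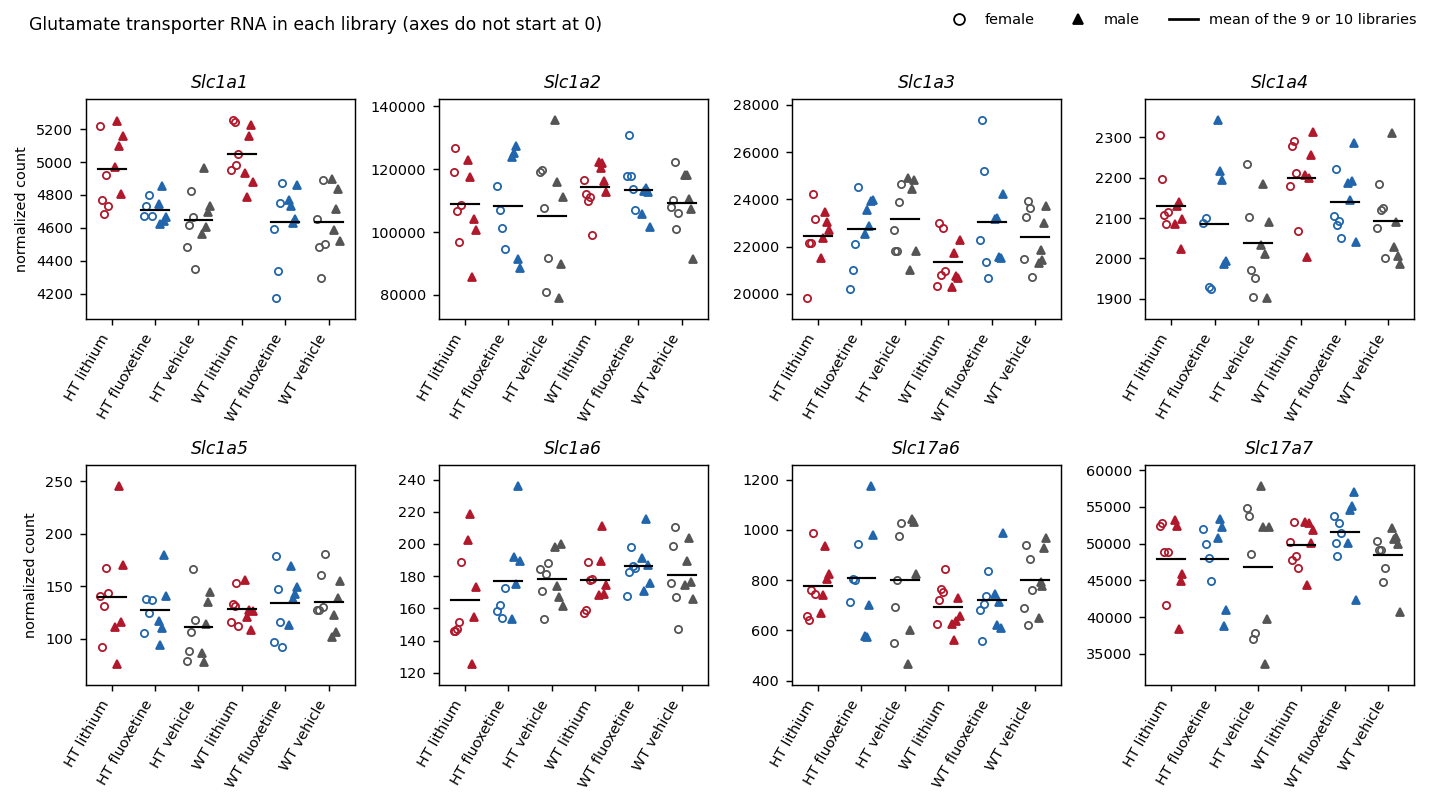
Normalized counts of each transporter in every library, by label and treatment, with open circles for females, filled triangles for males and a line at the mean of each column. For Slc1a1 all 20 lithium libraries lie above the vehicle median of 4636 and 11 above the highest vehicle library, so its columns overlap in part. The columns of the other 7 genes overlap too, and for Slc1a4 18 of 20 lithium libraries lie above the vehicle median.

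Fluoxetine left Slc1a1 close to vehicle. HT-labelled fluoxetine libraries ran from 4622 to 4854 normalized counts with a median of 4673, against 4347 to 4964 with a median of 4640 in HT-labelled vehicle libraries. WT-labelled fluoxetine libraries ran from 4176 to 4870 with a median of 4692, against 4294 to 4898 with a median of 4620 in WT-labelled vehicle libraries. In HT-labelled mice the fluoxetine range lay inside the wider vehicle range, and in WT-labelled mice the 2 ranges overlapped over most of their length. Fluoxetine minus vehicle was 0.02 on the log2 scale in HT-labelled mice, with a 95% interval of −2.33 to 5.22% for the relative change. In WT-labelled mice it was −0.00035, with an interval of −3.57 to 3.65%. Of the 8 members, 0 were called after fluoxetine in either label and 0 had an unadjusted p under 0.05 by limma, while 0% of all tested genes were called in HT-labelled and 0.190% in WT-labelled mice. Unadjusted p-values under 0.05 were found for 5.09% of all tested genes in HT-labelled and 12.5% in WT-labelled mice. Within single sexes no member was called after fluoxetine either, where 0.0297% of all tested genes were called in WT-labelled males and 0% in the other 3 combinations of label and sex.

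Set directly against fluoxetine, lithium gave a higher Slc1a1 level in WT-labelled mice, where the gene had 4788 to 5255 normalized counts after lithium and 4176 to 4870 after fluoxetine. Of the 10 lithium libraries, 9 lay above the highest fluoxetine library. The log2 difference was 0.12 ± 0.03 (limma adjusted p = 0.00297), and Slc1a1 was again the single member called, in a comparison where 5.88% of all tested genes were called and 20.9% had an unadjusted p under 0.05, as 2 of the 8 members (Slc1a1 and Slc1a3) had. In HT-labelled mice, lithium libraries ran from 4687 to 5248 and fluoxetine libraries from 4622 to 4854. There the log2 difference was 0.07 ± 0.03 (limma adjusted p = 0.285), 0 members and 0.0772% of all tested genes were called, and 1 member, Slc1a1, had an unadjusted p under 0.05, against 10.1% of all tested genes. Between lithium and fluoxetine of WT-labelled mice the marker lists differed as well. There 5 of 5 olfactory bulb markers lay higher after lithium (median log2 difference 0.53), as did 9 of 9 striatal markers (0.36) and 8 of 8 oligodendrocyte markers (0.17). So did the 6 of 6 tested cerebellar markers (0.12). Lower were 8 of 11 excitatory neuron markers (−0.11), of which Emx1 was called (−0.33, limma adjusted p = 0.0203). Of the microglia markers 6 of 7 lay lower (−0.08), of which C1qb was called (−0.17, limma adjusted p = 0.0163). No other marker was called in this comparison. With the olfactory bulb, striatal and astrocyte levels in the model the Slc1a1 difference there was 0.12, 0.13 and 0.09. The comparisons of lithium with vehicle and with fluoxetine use the same lithium libraries, and those of lithium and fluoxetine with vehicle use the same vehicle libraries, so they are not separate evidence.

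**Figure D3:**
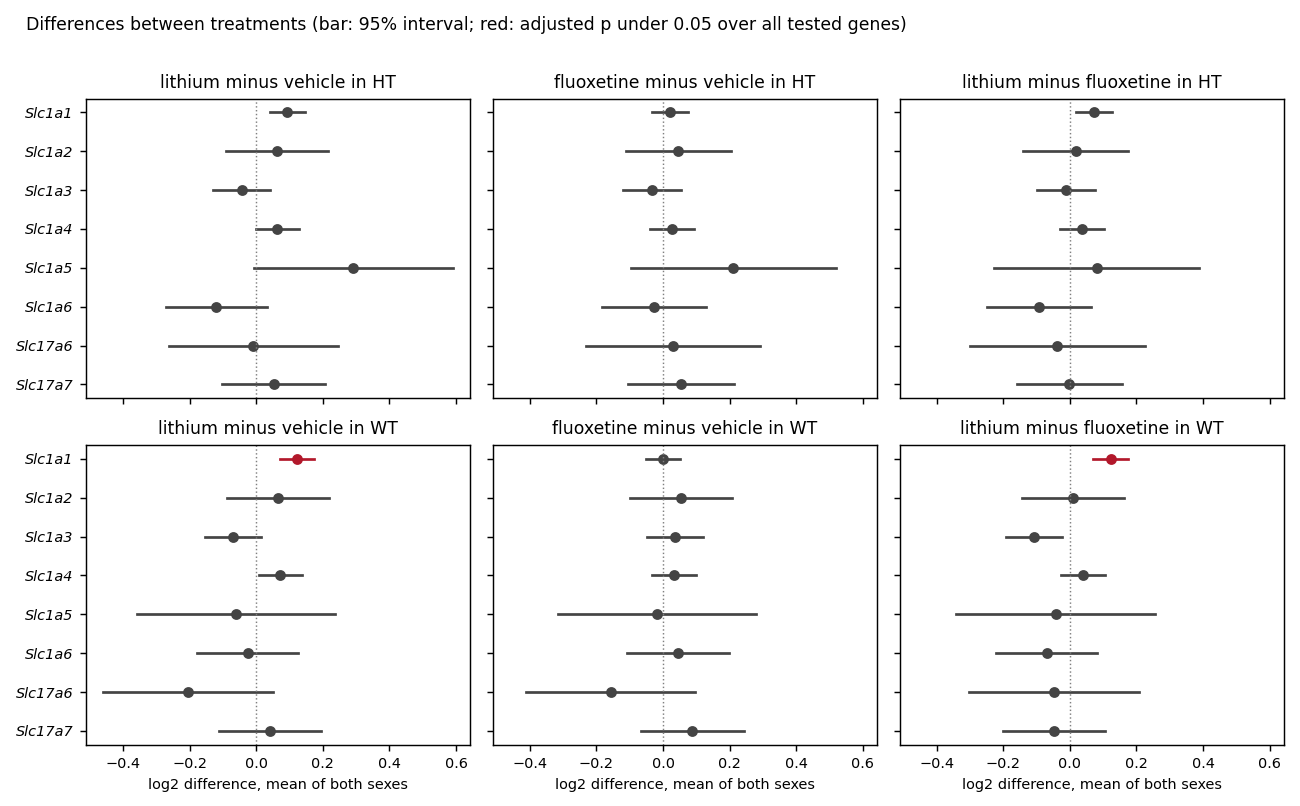
Log2 differences between treatments for the 8 transporters (points) with 95% intervals (bars), averaged over both sexes, with HT-labelled mice above and WT-labelled mice below. The 2 red points are Slc1a1 in WT-labelled mice, at 0.12 for lithium minus vehicle and 0.12 for lithium minus fluoxetine.

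Split by sex, the lithium minus vehicle difference of Slc1a1 was 0.08 in HT-labelled females, 0.10 in HT-labelled males, 0.16 in WT-labelled females and 0.09 in WT-labelled males on the log2 scale. Its unadjusted limma p was under 0.05 in all 4, where 5.99%, 5.81%, 6.56% and 9.32% of all tested genes had such a p, and its adjusted p ran from 0.321 to 0.806. No member was called in any of these 4 comparisons, in which 0% of all tested genes were called. The difference between the male and female responses was 0.02 in HT-labelled mice (95% interval −0.09 to 0.12) and −0.07 in WT-labelled mice (−0.18 to 0.03).

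Marker lists leaned to one side between treatments too. Slc1a1 was fitted with the olfactory bulb, striatal and astrocyte levels, as given below, and what moved the markers was not tested. After lithium, 5 of 5 olfactory bulb markers lay below vehicle in each label, with a median log2 difference of −0.29 in HT-labelled and −0.38 in WT-labelled mice, and 9 of 9 striatal markers lay above it, with medians of 0.21 and 0.29. After fluoxetine, 5 of 5 olfactory bulb markers lay below vehicle in each label, with medians of −0.25 in HT-labelled and −0.86 in WT-labelled mice. Of the 9 striatal markers, 9 lay above vehicle in HT-labelled mice (median 0.33) and 2 in WT-labelled mice (median −0.11). Of the 8 oligodendrocyte markers, 8 lay above vehicle after fluoxetine in HT-labelled mice (median 0.32) and 0 in WT-labelled mice (median −0.16). None of these 22 markers was called against vehicle in either label. Summed olfactory bulb counts ran from 439 to 13736 in HT-labelled lithium libraries, 486 to 12705 in HT-labelled fluoxetine libraries and 370 to 16793 in HT-labelled vehicle libraries. They ran from 511 to 5997 in WT-labelled lithium libraries, 236 to 8378 in WT-labelled fluoxetine libraries and 372 to 10960 in WT-labelled vehicle libraries. Summed striatal counts ran from 4828 to 11221 in HT-labelled lithium libraries and 4446 to 16517 in HT-labelled vehicle libraries. They ran from 5137 to 30353 in WT-labelled lithium libraries and 4680 to 12719 in WT-labelled vehicle libraries. The lithium minus vehicle difference of Slc1a1 was then fitted with such levels in the model. In HT-labelled mice, where it was 0.09 without them, it was 0.09 with the olfactory bulb level as a covariate, 0.09 with the striatal level, 0.09 with the astrocyte level and 0.10 once the 3 libraries with high striatal markers were left out, with adjusted p-values from 0.0540 to 0.114. In WT-labelled mice, where it was 0.12 without them, it was 0.12 on the log2 scale with the olfactory bulb level as a covariate (limma adjusted p = 0.0127) and 0.12 with the striatal level (adjusted p = 0.0223), and in libraries without the 3 of high striatal markers it was 0.13 (adjusted p = 0.0215). With the astrocyte level as a covariate it was 0.11 (adjusted p = 0.0128).

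**Figure D4:**
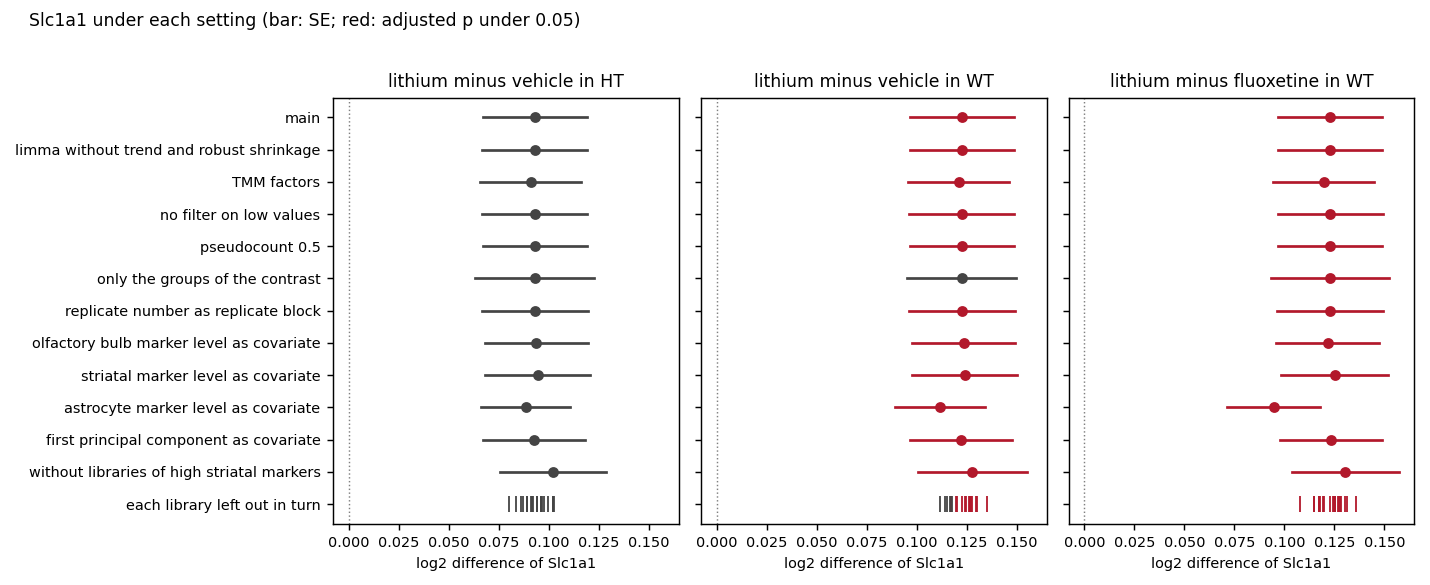
Log2 differences of Slc1a1 (points, with SE as bars) under each setting and with each library left out in turn (ticks), where red stands for an adjusted p under 0.05. For lithium minus vehicle the values stay between 0.08 and 0.10 in HT-labelled mice, where no tick is red, and between 0.11 and 0.14 in WT-labelled mice, where 15 of 20 ticks are. For lithium minus fluoxetine in WT-labelled mice they stay between 0.09 and 0.14, with 20 of 20 ticks in red.

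Slc1a4 encodes ASCT1, an exchanger of serine, alanine and cysteine found in neurons and glia. After Slc1a1 it had the smallest p for lithium in the average over both labels, and it did not pass the test. The gene (ENSMUSG00000020142) lies on the minus strand of chromosome 11, from 20302180 to 20332713 in GRCm38. Its promoter bases, chr11:20332714-20332963 on the minus strand, are shown beside those of Slc1a1 because the gene came second to it by p. They come from RefSeq (GRCm38.p6), run 5′ to 3′ and carry matches to GGGCGG on either strand in capitals.
Slc1a4: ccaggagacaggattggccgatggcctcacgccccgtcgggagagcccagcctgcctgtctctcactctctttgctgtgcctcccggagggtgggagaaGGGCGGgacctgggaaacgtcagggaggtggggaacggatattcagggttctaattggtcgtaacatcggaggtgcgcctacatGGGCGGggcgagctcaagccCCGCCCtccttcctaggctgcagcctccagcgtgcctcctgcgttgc
The 250 bases have a GC content of 64.8% and 3 matches to GGGCGG, a motif present in 32.7% of 32851 windows of this length. They have 0 matches to TGATGNAAN, present in 3.44% of those windows. Promoter entries were found for 7 of the 8 members, all but Slc1a5.

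In HT-labelled mice, Slc1a4 had 2306, 2196, 2108, 2086 and 2115 normalized counts in lithium females, against 2233, 2102, 1972, 1906 and 1953 in vehicle females. HT-labelled males had 2086, 2130, 2141, 2023 and 2097 after lithium, against 2034, 2184, 2011, 1903 and 2090 after vehicle. In both sexes the lithium values lay mostly in the upper part of the joint range. WT-labelled females had 2178, 2279, 2290, 2211 and 2067 after lithium, against 2074, 2183, 2119, 2124 and 2002 after vehicle. WT-labelled males had 2207, 2003, 2198, 2255 and 2313 after lithium, against 2310, 2028, 2090, 2005 and 1985 after vehicle. The groups overlapped in every sex and label, although 18 of the 20 lithium libraries lay above the median of the 20 vehicle libraries. Lithium minus vehicle was 0.06 ± 0.03 in HT-labelled mice (limma adjusted p = 0.509) and 0.07 ± 0.03 in WT-labelled mice (adjusted p = 0.362) on the log2 scale. In the average over both labels it was 0.07 ± 0.02, with an unadjusted p of 0.00466 and an adjusted p of 0.0749. There it was called without replicate 1 of the HT-labelled vehicle females (0.0364), replicate 2 of the HT-labelled vehicle males (0.0481), replicate 2 of the WT-labelled lithium males (0.0361) or replicate 1 of the WT-labelled vehicle males (0.0317). After fluoxetine Slc1a4 differed from vehicle by 0.03 in both HT-labelled and WT-labelled mice, neither called.

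The astrocytic uptake transporters showed no called difference. Slc1a2 encodes GLT-1, which carries most glutamate uptake in the forebrain, and lies on the plus strand of chromosome 2, from 102658659 to 102790784. Its lowest, median and highest values in HT-labelled lithium libraries were 85602, 107723 and 126870 normalized counts, against 79154, 109373 and 135691 in HT-labelled vehicle libraries. In WT-labelled mice they were 98955, 114553 and 122280 after lithium, against 91406, 109050 and 122304 after vehicle. Lithium and vehicle ranges overlapped widely in both labels. Lithium minus vehicle was 0.06 on the log2 scale in HT-labelled mice (95% interval −0.09 to 0.22) and 0.07 in WT-labelled mice (−0.09 to 0.22). The fluoxetine difference from vehicle was 0.05 in both labels (−0.11 to 0.20 in HT-labelled and −0.10 to 0.21 in WT-labelled mice).

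Slc1a3 encodes GLAST, the other astrocytic uptake transporter, and lies on the minus strand of chromosome 15, from 8634124 to 8710764. In WT-labelled mice its lowest, median and highest values were 20288, 20874 and 23001 normalized counts after lithium and 20680, 22724 and 27357 after fluoxetine. After vehicle they were 20695, 22441 and 23921. Of the 10 lithium libraries, 2 lay above the fluoxetine median, and the groups overlapped. Lithium minus fluoxetine was −0.11 ± 0.04 on the log2 scale, with an unadjusted limma p of 0.0141 and an adjusted p of 0.123. With the olfactory bulb level as a covariate the adjusted p was 0.0418 at a difference of −0.12, and with the first principal component it was 0.0236 at −0.11. The astrocyte markers moved with it: 10 of 12 lay below fluoxetine, with a median log2 difference of −0.11, mean log2 levels between 11.2 and 11.5 in both groups and none called. With the astrocyte level as a covariate the Slc1a3 difference was −0.04. In HT-labelled mice Slc1a3 ran from 19844 to 24238 normalized counts after lithium, 20216 to 24533 after fluoxetine and 21001 to 24916 after vehicle, and its log2 differences were −0.04 for lithium minus vehicle, −0.03 for fluoxetine minus vehicle and −0.01 for lithium minus fluoxetine.

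The low members differed in spread. The residual SD of Slc1a6 on the log2 scale was 0.166, at percentile 50.8 of all tested genes, and that of Slc1a5 was larger. Slc1a5 encodes ASCT2, a glutamine exchanger, and lies on the plus strand of chromosome 7, from 16781340 to 16798274. In HT-labelled mice its lowest, median and highest values were 76.3, 136 and 245 normalized counts after lithium and 77.6, 110 and 167 after vehicle. The log2 difference of 0.29 ± 0.15 was the largest among the members in that comparison and was not called (limma adjusted p = 0.507). It was 0.18 without replicate 3 of the HT-labelled lithium males, and up to 0.39 with another library left out. Fluoxetine libraries lay above the HT-labelled vehicle libraries too, with values of 93.8, 125 and 179. Fluoxetine minus vehicle there ran from 0.21 to 0.29 over the alternative settings and was called in 0 of 11. In WT-labelled mice the values were 108, 127 and 157 after lithium and 102, 129 and 180 after vehicle, with a difference of −0.06 ± 0.15. Its residual SD of 0.34 on the log2 scale was at percentile 79.4 of all tested genes, so a change of the size seen in Slc1a1 would be hard to detect for it in these libraries. The source of this spread was not tested. Slc1a6 encodes EAAT4 and lies on the plus strand of chromosome 10, from 78780496 to 78814765. It ran from 126 to 219 normalized counts after lithium and from 147 to 210 after vehicle over all 20 libraries of each. Lithium minus vehicle was −0.12 ± 0.08 in HT-labelled and −0.03 ± 0.08 in WT-labelled mice on the log2 scale, and fluoxetine minus vehicle was −0.03 ± 0.08 in HT-labelled and 0.04 ± 0.08 in WT-labelled mice. The lithium value in HT-labelled mice was −0.06 without replicate 3 of the HT-labelled lithium males.

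The vesicular transporters did not pass the test after either drug. Slc17a7 encodes VGLUT1 and lies on the plus strand of chromosome 7, from 45163949 to 45176142. In HT-labelled mice its lowest, median and highest values were 38378, 48887 and 53224 normalized counts after lithium, 38733, 49929 and 53317 after fluoxetine and 33642, 50439 and 57827 after vehicle. The HT-labelled vehicle libraries enclosed the range of both drug groups. In WT-labelled mice the values were 44425, 50111 and 52916 after lithium, 42267, 52141 and 57063 after fluoxetine and 40711, 49565 and 52115 after vehicle. Differences from vehicle ran from 0.04 to 0.09 on the log2 scale over both drugs and both labels. Of 11 excitatory neuron markers, 9 lay above vehicle after fluoxetine in HT-labelled mice (median 0.04) and 10 in WT-labelled mice (median 0.11). After lithium 7 lay above vehicle in HT-labelled and 6 in WT-labelled mice (both medians 0.01). None of these markers was called against vehicle, and their part in the Slc17a7 values was not tested.

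Slc17a6 encodes VGLUT2 and lies on the same strand and chromosome, from 51622006 to 51671119. In HT-labelled mice its lowest, median and highest values were 641, 751 and 988 normalized counts after lithium, against 466, 812 and 1043 after vehicle. Lithium minus vehicle was −0.01 ± 0.13 on the log2 scale. In WT-labelled mice the values were 560, 688 and 846 after lithium and 623, 784 and 968 after vehicle, and 1 of the 10 lithium libraries lay above the vehicle median. The difference there was −0.20 ± 0.13, with a 95% interval of −0.46 to 0.05 (limma adjusted p = 0.559). The fluoxetine difference from vehicle was 0.03 ± 0.13 in HT-labelled and −0.16 ± 0.13 in WT-labelled mice.

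As a group, the members were split in direction. Lithium minus vehicle was above 0 for 5 of 8 in HT-labelled mice, with a median of 0.06 on the log2 scale, and for 4 of 8 in WT-labelled mice, with a median of 0.01. The median over all tested genes was 0.0018 in HT-labelled mice and −0.0010 in WT-labelled mice. Fluoxetine minus vehicle was above 0 for 6 of 8 in HT-labelled mice and for 5 of 8 in WT-labelled mice, with medians of 0.03 and 0.04.

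Between the labels, HT minus WT, 0 of 8 members were called within lithium, within fluoxetine or within vehicle, where 0.267%, 0.849% and 0.202% of all tested genes were called. Unadjusted p-values under 0.05 numbered 0, 0 and 1 of 8 members, beside 10.1%, 14.7% and 10.6% of all tested genes, the 1 being Slc1a5 within vehicle (0.0494). Its values were 77.6, 110 and 167 normalized counts (lowest, median, highest) in HT-labelled vehicle libraries and 102, 129 and 180 in WT-labelled vehicle libraries, a log2 difference of −0.30 ± 0.15 with a limma adjusted p of 0.468. Since Chd8 goes against the labels, its direction is that of the labels alone. No member was called in the interactions of drug with genotype label or with sex, for which 0% of all tested genes were called and 0 members had an unadjusted p under 0.05. The share of all tested genes with such a p was 2.29% for lithium and 6.18% for fluoxetine in the interactions with label. In those with sex it was 2.32% for lithium and 2.37% for fluoxetine in HT-labelled mice, and 4.17% and 4.83% in WT-labelled mice. None was called between females and males (0.154% of all tested genes), where the smallest unadjusted p was 0.0516, for Slc1a6, with a female minus male difference of −0.09 on the log2 scale.

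Over the 59 libraries, several members varied together with the levels of cell type markers. Slc17a7 varied with the mean log2 level of 11 excitatory neuron markers, which did not include it (Pearson r = 0.952, Spearman rho = 0.935, both permutation p = 1e-05, the smallest that 100000 permutations can give; adjusted over 68 relations 4.25e-05 and 5.23e-05). Without the 2 libraries farthest from the median r was 0.946, and within groups it was 0.957. Slc1a2, although it is an astrocytic transporter, showed r = 0.875 and rho = 0.798 with the same markers (both permutation p = 1e-05; r = 0.850 without 2 libraries; 0.901 within groups). With 12 astrocyte markers its r was −0.373 (permutation p = 0.0034, adjusted 0.00722) and its rho −0.248 (p = 0.0572, adjusted 0.0884), with r = −0.430 without 2 libraries and −0.364 within groups. Slc1a3 followed the astrocyte markers (r = 0.753, rho = 0.727, both permutation p = 1e-05; r = 0.712 without 2 libraries; 0.764 within groups). Slc1a2 and Slc1a3, both expressed in astrocytes, thus lay on opposite sides, and their correlation with each other was −0.308 (permutation p = 0.0182, adjusted 0.0334; rho −0.297, p = 0.0242, adjusted 0.0411; r = −0.242 without 2 libraries). All these measures come from the same libraries and share their depth and normalization.

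Slc17a6 ran opposite to Slc17a7. Its r was −0.779 with the excitatory neuron markers (rho −0.773) and 0.782 with the 5 olfactory bulb markers (rho 0.791), and −0.777 with Slc17a7 (rho −0.741). The permutation p was 1e-05 for each of these 6 values, and r moved to −0.756, 0.785 and −0.750 without 2 libraries and to −0.817, 0.804 and −0.796 within groups. With the thalamus markers the r of Slc17a6 was 0.505 (permutation p = 5e-05, adjusted 0.000179) and its rho 0.486 (permutation p = 0.00016, adjusted 0.000604). There r was 0.474 without 2 libraries and 0.575 within groups. Slc1a2 had r = −0.837 and rho = −0.871 with the olfactory bulb markers (both permutation p = 1e-05; −0.852 without 2 libraries and within groups). For Slc1a1, r was 0.105 with the olfactory bulb markers (permutation p = 0.428; rho 0.102, p = 0.44; 0.0564 without 2 libraries) and 0.0280 with the excitatory neuron markers (p = 0.832; rho −0.0472, p = 0.723; −0.0216 without 2 libraries). With the astrocyte markers its r was −0.460 (p = 0.00022, adjusted 0.00065; rho −0.387, p = 0.00252, adjusted 0.00573; −0.339 without 2 libraries; −0.560 within groups).

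**Figure D5:**
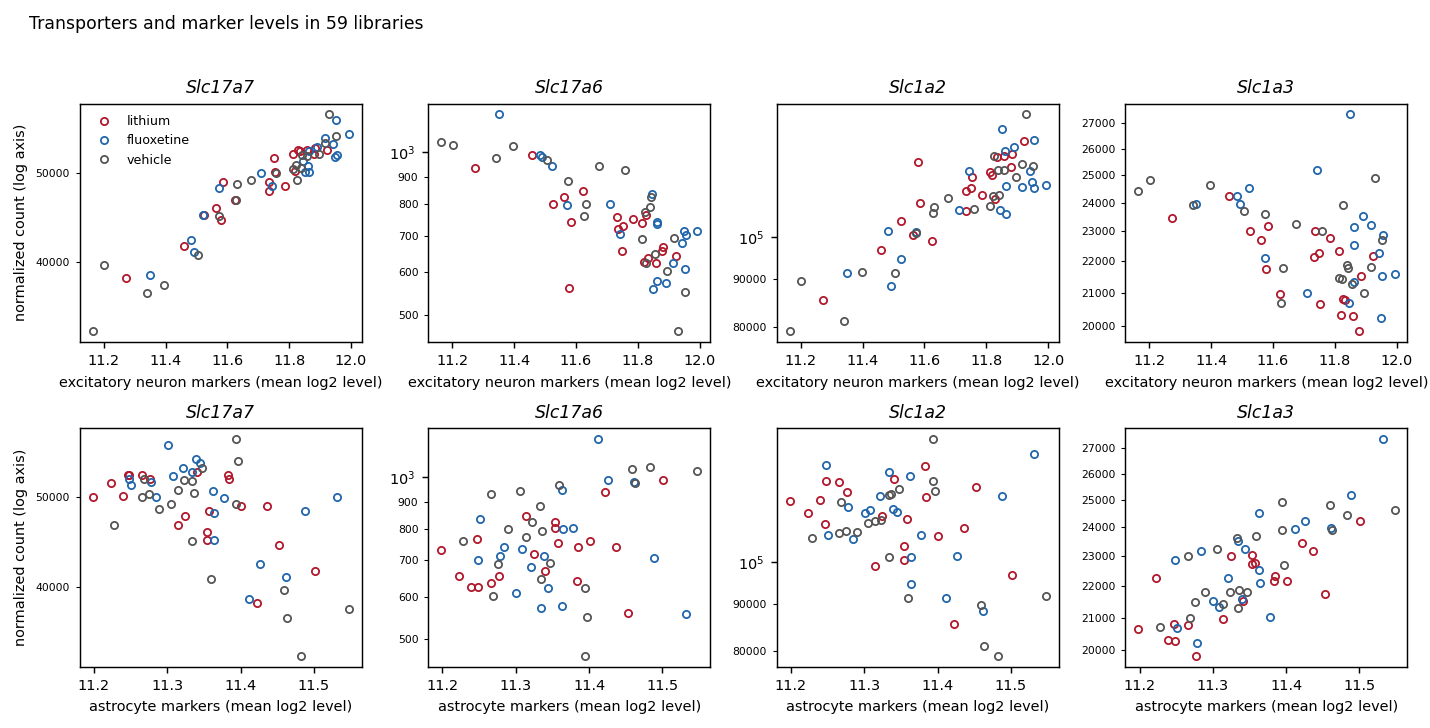
Normalized counts of 4 transporters (log axis) against the mean log2 level of excitatory neuron markers (top) and astrocyte markers (bottom), with 1 point per library coloured by treatment. Slc17a7 and Slc1a2 climb with the excitatory neuron markers (r = 0.952 and 0.875), Slc17a6 descends (r = −0.779), and Slc1a3 climbs with the astrocyte markers (r = 0.753), with the treatments intermixed.

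The genes most like each member were found by the Pearson correlation of log2 levels over the 59 libraries after subtracting group means, and are given as a description. For Slc1a1 they included Slc8a1 (a sodium and calcium exchanger, r = 0.748) and Eif3a (a translation initiation factor subunit, 0.737). For Slc17a7 they were Gabbr2 (a GABA-B receptor subunit, 0.975), Syt13 (0.972) and Ywhah (0.971). Slc1a2 was most like Hpcal4 (0.941), Prkcb (0.934) and Rims1 (0.934), of which Rims1 organizes presynaptic release sites. Slc1a3 was most like Mlc1 (0.834), Pcdhgc3 (0.803) and Gldc (0.803), of which Mlc1 is an astrocytic membrane protein and Gldc a glycine-degrading enzyme of astrocytes. Slc17a6 was most like Sh3bgrl2 (0.916), Fam171b (0.913) and Epha5 (0.911), and Slc1a4 most like Kcng1 (0.774), St8sia5 (0.750) and Chd5 (0.747). The likeness was weaker for Slc1a5, led by Afap1l2 (0.725), Plscr2 (0.719) and Ptn (0.706), and for Slc1a6, led by Zfp119a (0.553), Naa60 (0.541) and Gm12371 (0.5256).

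Other genes of the glutamate pathway were read from lists chosen by function. Of 19 genes of the glutamate and glutamine cycle, all tested, 0 were called for lithium or fluoxetine against vehicle in either label. Unadjusted limma p-values under 0.05 numbered 3 for lithium and 2 for fluoxetine in HT-labelled mice, where 10.2% and 5.09% of all tested genes had them. In WT-labelled mice they numbered 5 for lithium and 1 for fluoxetine, beside 11.9% and 12.5%. For lithium minus vehicle, 13 of 19 lay above 0 in HT-labelled mice (median 0.01 on the log2 scale), beside 50.9% of all tested genes, and 15 of 19 in WT-labelled mice (median 0.05), beside 49.4%. For lithium minus fluoxetine in WT-labelled mice, 2 of the 19 were called, both higher. One of them, Aldh5a1, which degrades the succinic semialdehyde made from GABA, averaged 3196 normalized counts after lithium and 2904 after fluoxetine, a log2 difference of 0.14 ± 0.03 (limma adjusted p = 0.00579). Those 2 of 19 stand beside 5.88% of all tested genes.

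Of 20 tested amino acid transporters of other families, 2 were called in the same comparison, both higher after lithium than after fluoxetine. They were Slc38a9, a lysosomal arginine sensor (938 and 813 normalized counts, log2 difference 0.21 ± 0.05, limma adjusted p = 0.0129), and Slc43a2, a carrier of large neutral amino acids (2229 and 1942, 0.21 ± 0.07, adjusted p = 0.0480). None of these 20 was called in the other 5 treatment comparisons, where between 1 and 5 had an unadjusted limma p under 0.05, beside 5.09 to 12.5% of all tested genes. Of 11 transporter partners 0 were called in the 6 treatment comparisons, and 6 had an unadjusted limma p under 0.05 for lithium minus fluoxetine in WT-labelled mice, beside 20.9% of all tested genes. The smallest p-value among them belonged to Rtn2, which binds and traffics Slc1a1 (lithium minus fluoxetine in WT-labelled mice −0.13 ± 0.04 on the log2 scale, adjusted p = 0.0621). Of the 8 remaining Slc1 and Slc17 genes, 3 passed the filter on low values and 0 were called, while 1 had an unadjusted limma p under 0.05 for each drug against vehicle in HT-labelled mice. Among these Slc17a5, the lysosomal sialic acid carrier, had a lithium minus vehicle difference of 0.11 ± 0.04 in HT-labelled mice (adjusted p = 0.290), and Slc17a9, the vesicular nucleotide transporter, averaged 11.1 normalized counts over all libraries. Slc1a7 averaged 2.12 normalized counts and Slc17a4 was listed at 0 in every library.

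In the average of lithium minus vehicle over both labels and sexes, where 4.41% of all tested genes were called, 5 genes of these lists were called, and they are named after their values were seen. Of the 19 cycle genes 2 were called, both higher. They were Got2, the mitochondrial aspartate aminotransferase (7824 normalized counts after lithium and 7187 after vehicle, log2 difference 0.12 ± 0.03, limma adjusted p = 0.0118), and Aldh5a1 (3198 and 3015, 0.09 ± 0.02, adjusted p = 0.0190). Of the 20 other amino acid transporters 1 was higher and 1 lower. Slc36a1, a proton-coupled amino acid carrier, averaged 3905 and 3400 normalized counts (0.20 ± 0.05, limma adjusted p = 0.0109). Slc7a11, which exchanges cystine for glutamate, averaged 1895 and 2129 (−0.18 ± 0.05, adjusted p = 0.0469). Of the 11 partners Arl6ip1, a protein of the endoplasmic reticulum membrane, was called, with 8108 and 7632 normalized counts (0.09 ± 0.02, adjusted p = 0.0218). Of the 3 remaining Slc1 and Slc17 genes tested, 0 were called.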

How the data were processed

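RNA sequencing libraries of mouse prefrontal cortex were grouped by the labels' genotype, treatment and sex. The authors deposited 1 table of normalized signal, that is estimated counts divided by normalization factors, for 51456 genes and 59 libraries. The submitters' processing notes name DESeq2 1.19.11, Salmon 0.11.2, R 3.6.0 and the build GRCm38, with no role or order. Library sums were 30.3 to 33.7 M after normalization. The most frequent low value per library, searched for only near 1 and taken as 1 read, was 0.854 to 1.31. It was held by 27 to 134 genes per library. Neither measure gives the sequencing depth. Whether factors were per library or also per gene is not given in the sources used here. Pairs of libraries had correlations of 0.966 to 0.991 on the log2 scale, so none was a duplicate.

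The table holds no raw counts, so limma 3.58.1 (R 4.3.3, statmod 1.5.0) was fitted to log2(value + 1) of the 16839 genes with a mean of at least 10, which understates changes of low genes. Each of the 12 groups had its own mean, and variances were shrunk robustly towards a trend. P-values were adjusted by Benjamini-Hochberg over all 16839 genes in each of 25 contrasts, called under 0.05. The model was tested on simulated data. Errors after ± are SD for counts and SE for log2 differences. Relations across libraries used two-sided tests with 100000 permutations. The members and lists were chosen with earlier results of these data known. Named genes of each list are those called in any of the 6 treatment comparisons, otherwise the 2 with the smallest p, and the 3 genes most like each member. Some genes that this rule names are not reported here. Chd8 is named as the label check.

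Alternatives were a limma fit with neither trend nor robustness, TMM factors (trims of 30% for log ratios, 5% for levels), all genes kept whatever their level, 0.5 as the pseudocount, a contrast's own groups alone, a block for the replicate number, covariates for olfactory bulb, striatal and astrocyte markers, and each library left out. The first principal component as a covariate, the fit without 3 libraries of high striatal markers and the lithium contrast over both labels were added after seeing the data. Exon lengths and positions come from GENCODE vM21 (GRCm38), and promoter sequences from RefSeq (GRCm38.p6). Salmon divides reads among similar transcripts, so a gene with a near-identical copy would have an uncertain value.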

Additional observations from a re-analysis of the deposited data

Results flagged for a closer look

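Among 96 groups of 4 or 5 libraries (8 genes in 12 groups), 2 held a library whose gap to its nearest neighbour was large relative to the range of its group. Chance alone gives about 1 in 20 such groups, so fewer were found than that rate gives. Slc1a6 stood at 189 normalized counts in replicate 5 of the HT-labelled lithium females, while the other 4 lay between 146 and 151. Slc17a7 stood at 40711 normalized counts in replicate 5 of the WT-labelled vehicle males, while the other 4 lay between 50006 and 52115. This Slc17a7 library had the highest olfactory bulb level (10.46) and the lowest excitatory neuron level (11.505) of the WT-labelled vehicle libraries. The Slc1a6 library, at 8.69 and 11.58, lay within the range of its group for both. What sets these 2 values apart was not tested.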

How the results depend on the processing

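The higher Slc1a1 level after lithium kept its direction in all 11 alternative settings and in every fit with 1 library left out. Against vehicle it ranged from 0.11 to 0.13 over the settings in WT-labelled mice and passed the threshold in 10 of 11. With the groups of the contrast alone the count of called members was 0. Leaving out single libraries gave counts of 0 to 1, with the call kept in 15 of 20 fits. In HT-labelled mice it passed in 0 of 11 and 0 of 20, with adjusted p-values from 0.0540 to 0.386 over the settings. Against fluoxetine in WT-labelled mice it passed in 11 of 11 and 20 of 20. The count there was 2 with the olfactory bulb covariate and 2 with the first principal component, Slc1a3 being the other gene. Over both labels Slc1a1 passed in 11 of 11 and 40 of 40. The count there was 2 with the replicate number as a block, Slc1a4 being the other gene (adjusted p = 0.0408), and 1 to 2 with single libraries left out. The causes were not tested. Replicate numbers shared between groups were not taken as pairs, since the correlation of deviations was over 0.1 in 17 of 39 same-number pairs, not all. It was over 0.1 in 12 of 19 pairs of HT-labelled mice (−0.370 to 0.553, median 0.25) and 5 of 20 of WT-labelled mice (−0.159 to 0.384, median 0.02), and 10 of 39 libraries correlated best with their own number. This rule does not show that the numbers carry no shared order. In every HT-labelled group the olfactory bulb level was lowest in replicate 1, and the reason was not tested. Over all genes the median shifted by no more than 0.0032 with TMM factors.

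Small differences that passed no threshold changed sign. With the astrocyte covariate, the log2 difference became 0.0257 for Slc17a6, −0.0491 for Slc1a2 and 0.0931 for Slc1a5 in lithium minus fluoxetine of WT-labelled mice, 0.0417 for Slc17a7 in that of HT-labelled mice, 0.0036 for Slc17a6 in lithium minus vehicle of HT-labelled mice, −0.0063 for Slc17a7 and 0.0070 for Slc1a3 in fluoxetine minus vehicle of HT-labelled mice, and 0.0171 for Slc1a1 and −0.0047 for Slc1a3 in that of WT-labelled mice. With the olfactory bulb covariate it became 0.0224 for Slc17a6 (lithium minus vehicle, HT-labelled), 0.0024 for Slc17a7 (lithium minus fluoxetine, HT-labelled), and 0.0019 for Slc1a1, −0.00833 for Slc1a2 and 0.0559 for Slc1a5 (fluoxetine minus vehicle, WT-labelled). With the striatal covariate it became 0.0207 for Slc17a6 (lithium minus vehicle, HT-labelled), 0.0011 for Slc17a7 (lithium minus fluoxetine, HT-labelled) and −0.0125 for Slc1a2 (lithium minus fluoxetine, WT-labelled). With the first principal component it became 0.0481 for Slc17a6 (lithium minus vehicle, HT-labelled), 0.0121 for Slc17a7 (lithium minus fluoxetine, HT-labelled), −0.0109 for Slc17a7 and 0.0020 for Slc1a5 (lithium minus vehicle, WT-labelled), −0.0049 for Slc1a2 (fluoxetine minus vehicle, HT-labelled), and −0.0211 for Slc1a2 and 0.0739 for Slc1a5 (fluoxetine minus vehicle, WT-labelled). The replicate block gave 0.0088 for Slc17a7 (lithium minus fluoxetine, HT-labelled). TMM factors gave 0.0013 for Slc1a1 and the fit without high striatal markers 0.0220 for Slc1a5 (fluoxetine minus vehicle, WT-labelled).

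Leaving out 1 library at a time moved these across 0. In lithium minus vehicle the ranges were −0.0956 to 0.0493 for Slc17a6 and −0.0053 to 0.0924 for Slc17a7 in HT-labelled mice, and −0.0594 to 0.0045 for Slc1a6 in WT-labelled mice. In fluoxetine minus vehicle of HT-labelled mice they were −0.0578 to 0.0872 for Slc17a6, −0.0036 to 0.0940 for Slc17a7, −0.0042 to 0.0930 for Slc1a2 and −0.0695 to 0.0080 for Slc1a6. In WT-labelled mice they were −0.0131 to 0.0146 for Slc1a1 and −0.0862 to 0.0314 for Slc1a5. In lithium minus fluoxetine of HT-labelled mice they were −0.0907 to 0.0386 for Slc17a6, −0.0358 to 0.0335 for Slc17a7, −0.0218 to 0.0544 for Slc1a2, −0.0313 to 0.0152 for Slc1a3 and −0.0293 to 0.180 for Slc1a5. In WT-labelled mice they were −0.0880 to 0.0080 for Slc17a6, −0.0057 to 0.0307 for Slc1a2 and −0.0926 to 0.0250 for Slc1a5.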
